A study of Mus musculus with 23 samples.

Results

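The 32 genes described here encode the enzymes of glycolysis and of the pentose phosphate pathway, the glucose and lactate transporters of the cell membrane, and the kinases that regulate phosphofructokinase and pyruvate dehydrogenase. The rule lists them by name and uses no measured value to pick them, but the list was made with earlier results of these data known. Each gene was read from 1 probe set of the array, the one annotated to that gene alone with the highest mean over the 23 arrays. A probe set of that kind was found for 29 of the 32 genes, out of 18194 genes measured in all; Gpi1, Eno1 and G6pdx are not analysed here.

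Mouse CD4+ T cells had been sorted by surface CD25, the alpha chain of the interleukin 2 receptor, and surface CD49f, the integrin alpha 6 chain that pairs with a beta chain to bind laminin. Of the arrays, 4 hold the CD25+CD49f+ sort, 5 hold CD25+CD49f-, 7 hold CD25-CD49f+ and the last 7 hold CD25-CD49f-, each called a biological replicate by its label. All are labelled female and T cells; no treatment or genetic change is named, and strain, age and organ are not given in the sources used here. Values are log2 expression, so a difference of 1 is a doubling of signal; levels of different probe sets are not comparable, and a change in signal can come from fewer cells of a type or from less RNA per cell, which cannot be told apart in bulk RNA.

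Glycolysis splits glucose to pyruvate in the cytosol and yields ATP, and lactate dehydrogenase turns pyruvate to lactate and back. The pentose phosphate pathway branches off after the first step and supplies NADPH and ribose for nucleotides. Activated and dividing T cells are known to raise glucose uptake and glycolysis, and regulatory T cells, which carry Foxp3 and much CD25, are known to lean more on mitochondrial respiration.

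The sort and the arrays were checked first. Il2ra, which encodes CD25, averaged 9.60 ± 0.18 in CD25+CD49f+ cells, against 6.84 ± 0.24 in CD25-CD49f+ cells (SD, n = 4 and 7), and 9.69 ± 0.16 in CD25+CD49f- cells, against 5.42 ± 0.20 in CD25-CD49f- cells (SD, n = 5 and 7). Foxp3 averaged 9.85, 9.79, 8.25 and 4.74 in CD25+CD49f+, CD25+CD49f-, CD25-CD49f+ and CD25-CD49f- cells. Itga6, which encodes CD49f, did not follow the surface gate: it averaged 9.36 ± 0.08 in CD25-CD49f+ cells, against 9.79 ± 0.16 in CD25-CD49f- cells (SD, n = 7 each), a limma difference of -0.44 ± 0.08 (SE, adjusted p = 0.000321). The T cell markers Cd3e and Cd4 were present in every group, at means of 11.65 to 11.70 for Cd3e and 9.12 to 9.68 for Cd4. Of 7 T cell markers measured, 2 were lower in CD25+CD49f- against CD25-CD49f- cells, where 14% of all genes were called. In CD25+CD49f+ cells 1 was higher than in CD25+CD49f- cells and 1 lower than in CD25-CD49f+ cells (1.82% and 5.72% of all genes called). Of the arrays 4 stand apart: CD25+CD49f- replicate 5, CD25-CD49f+ replicate 1 and CD25-CD49f- replicates 1 and 7, which correlated with their own group at a median of 0.967 to 0.987, against 0.992 to 0.997 for the other 19, and CD25+CD49f- replicate 5 had an Actb 3' minus 5' signal gap of 4.83 on the log2 scale and CD25-CD49f- replicate 1 one of 2.70, against up to 2.09 on those 19. Y-linked transcripts without Xist were seen on 2 of 4, 2 of 5, 3 of 7 and 3 of 7 arrays in the same order of groups, and CD25+CD49f- replicate 5 carried both. The Y-linked transcripts do not match the female label of these arrays. Cell cycle markers moved with the gates: 27 of 29 markers rose when CD25-CD49f+ was set against CD25-CD49f- cells, where 8.01% of all genes were called higher. When CD25+CD49f+ was set against CD25-CD49f+ cells 18 of 29 fell, where 2.91% of all genes were called lower. Myeloid and dendritic cell markers were lower in 7 of 14 cases and higher in 1 in CD25-CD49f+ against CD25-CD49f- cells; their summed level was 10.53 to 11.31 and 10.67 to 12.15 there. Of 6 NK and CD8 cell markers 1 was lower in that comparison (13.4% of all genes called). In CD25+CD49f- against CD25-CD49f- cells 1 was lower and 1 higher (14%). Their summed level was 8.52 to 9.08 in CD25-CD49f- cells. It was 8.02 to 8.15, 8.04 to 8.28 and 7.94 to 8.19 in CD25+CD49f+, CD25+CD49f- and CD25-CD49f+ cells. The part of these markers in the results was not tested.

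Promoter sequence, from RefSeq with the GRCm38.p6 build, is shown for 3 genes that were higher in CD25+ cells (Eno3, Eno2 and Ldhb) and for 2 that were lowest in CD25-CD49f- cells (Pgk1 and Tpi1). The window runs from 250 bases before to 50 bases after the annotated start. Capitals mark ACGTG or GCGTG on either strand, the core letters bound by hypoxia-inducible factor; of these, ACGTG also lies within CACGTG, the element bound by Myc.
Eno3 promoter, chr11:70656926-70657225, plus strand: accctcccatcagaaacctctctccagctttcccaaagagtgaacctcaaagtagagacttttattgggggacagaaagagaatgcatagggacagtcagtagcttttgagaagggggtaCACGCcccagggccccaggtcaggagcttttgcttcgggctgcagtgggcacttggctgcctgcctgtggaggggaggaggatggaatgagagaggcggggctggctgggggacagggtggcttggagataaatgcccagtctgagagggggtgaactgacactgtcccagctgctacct
Eno2 promoter, chr6:124769624-124769923, minus strand: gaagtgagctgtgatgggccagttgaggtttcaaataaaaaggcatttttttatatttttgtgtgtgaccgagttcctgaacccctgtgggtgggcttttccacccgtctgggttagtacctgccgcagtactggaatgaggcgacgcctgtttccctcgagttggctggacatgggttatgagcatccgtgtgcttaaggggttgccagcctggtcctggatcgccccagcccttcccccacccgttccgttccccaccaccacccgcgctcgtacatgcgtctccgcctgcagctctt
Ldhb promoter, chr6:142507908-142508207, minus strand: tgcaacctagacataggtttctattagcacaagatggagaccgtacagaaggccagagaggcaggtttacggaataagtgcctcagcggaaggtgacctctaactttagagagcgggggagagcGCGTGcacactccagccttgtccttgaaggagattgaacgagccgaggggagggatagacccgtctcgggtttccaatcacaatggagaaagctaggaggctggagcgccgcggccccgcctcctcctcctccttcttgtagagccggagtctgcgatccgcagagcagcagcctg
Pgk1 promoter, chrX:106186850-106187149, plus strand: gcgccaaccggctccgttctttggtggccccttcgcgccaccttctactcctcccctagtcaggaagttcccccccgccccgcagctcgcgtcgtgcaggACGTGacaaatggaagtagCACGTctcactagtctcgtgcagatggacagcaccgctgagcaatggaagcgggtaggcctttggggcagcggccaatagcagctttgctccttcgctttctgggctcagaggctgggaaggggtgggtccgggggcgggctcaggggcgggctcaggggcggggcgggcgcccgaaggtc
Tpi1 promoter, chr6:124814109-124814408, minus strand: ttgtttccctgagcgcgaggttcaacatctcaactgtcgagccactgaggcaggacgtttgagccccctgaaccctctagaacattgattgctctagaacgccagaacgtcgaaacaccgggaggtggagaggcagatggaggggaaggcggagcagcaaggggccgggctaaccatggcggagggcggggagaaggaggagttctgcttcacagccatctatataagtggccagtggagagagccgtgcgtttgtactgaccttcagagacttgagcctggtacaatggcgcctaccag
Pgk1 held 2 matches, Eno3 and Ldhb 1 each, and Eno2 and Tpi1 none. Of all 32851 promoters of this length, 43.8% held a match, so the letters are common; the table has 47 promoters for 31 of the listed genes, and 36 of the 47 held one. CACGTG was found in 7.15% of all promoters and in 5 of the 47, and TTCNNNGAA, the letters bound by STAT factors, in 8.3% and in 2 of the 47. A match is a description of the letters and not evidence of binding.

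CD25 was compared within each CD49f gate. The muscle-type enolase Eno3, the neuron-type enolase Eno2, the heart-type lactate dehydrogenase subunit Ldhb and the high-affinity glucose transporter Slc2a3 were higher in CD25+ cells whichever CD49f gate was compared. In CD25+CD49f+ against CD25-CD49f+ cells these 4 of 29 genes passed the test as higher (limma adjusted p under 0.05) and none as lower, where 5.72% of all genes tested were called, 2.81% higher and 2.91% lower. For the CD49f- sorts, CD25+CD49f- against CD25-CD49f-, 7 of 29 were called higher and 2 lower, where 14% of all genes tested were called, 9.34% higher and 4.68% lower. The members' median difference was -0.01 and 0.18, against 0.02 and -0.01 over all genes. Of the 29 cell cycle markers 18 fell among CD49f+ cells and 16 rose among CD49f- cells, and of the 14 myeloid and dendritic cell markers 5 fell and 2 rose among CD49f- cells and none passed among CD49f+ cells. Of 8 neutrophil markers 2 fell in each CD25 comparison, with medians of -0.74 among CD49f+ and -0.41 among CD49f- cells. Without the 4 arrays that stand apart 6 and 7 of the 8 fell, where 13% and 19.7% of all genes were called in either direction. The part of these markers in the results was not tested.

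Eno3, whose enzyme makes phosphoenolpyruvate and is known best from muscle, had the largest differences of all members. Its levels were 8.82, 8.94, 9.23 and 8.97 on the arrays of CD25+CD49f+ cells, against a lowest, median and highest of 6.66, 7.05 and 7.43 in CD25-CD49f+ cells. In CD25+CD49f- cells they were 8.96, 9.19, 9.0, 9.0 and 8.29, against 6.74, 7.22 and 7.86 in CD25-CD49f- cells. Every CD25+ array lay above every CD25- array; the lowest CD25+ value was the replicate 5 array named above. The difference was 1.90 ± 0.17 (SE, adjusted p = 2.77e-08), 3.72-fold, among CD49f+ cells and 1.63 ± 0.16 (SE, adjusted p = 2.79e-08), 3.09-fold, among CD49f- cells.

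Eno2 encodes the enolase known from neurons. It read 5.53, 5.56, 5.70 and 5.64 in CD25+CD49f+ cells, against 4.57, 4.72 and 5.04 (lowest, median, highest) in CD25-CD49f+ cells. In CD25+CD49f- cells it read 5.75, 5.80, 5.62, 5.62 and 4.89, against 4.33, 4.43 and 4.69 in CD25-CD49f- cells. Neither pair overlapped, and the differences were 0.86 ± 0.13 and 1.03 ± 0.12 (SE, adjusted p = 4.48e-05 and 3.35e-07). All group means of Eno2 lie in the range that Xist gave on arrays lacking it, up to 6.50. Those of Hk2, Pgam2, Slc16a3 and Pfkfb2 do too, so these 5 genes were read at signals where 1 absent transcript also fell. The Y-linked Eif2s3y reached only 3.49 on arrays lacking it, under all of these means. The signal of an absent transcript thus differs between probe sets, and whether these 5 genes were expressed was not tested.

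Ldhb, the lactate dehydrogenase subunit known to prevail in tissues that oxidise lactate, was at 8.72, 8.89, 8.91 and 8.84 in CD25+CD49f+ cells, against 8.11, 8.35 and 8.49 in CD25-CD49f+ cells. It was at 8.94, 9.18, 9.07, 9.07 and 8.90 in CD25+CD49f- cells, against 8.08, 8.28 and 8.51 in CD25-CD49f- cells. The groups did not overlap in either pair, with differences of 0.50 ± 0.09 and 0.73 ± 0.09 (SE, adjusted p = 0.000589 and 4.39e-07). Each of the 4 probe sets of Ldhb, fitted separately, was higher in both, by 0.50 to 1.16 among CD49f+ and 0.73 to 1.56 among CD49f- cells.

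Slc2a3, also known as GLUT3, had levels of 11.14, 11.11, 11.38 and 11.27 in CD25+CD49f+ cells, against 10.45, 10.67 and 10.98 in CD25-CD49f+ cells. It had 11.12, 11.31, 11.08, 11.16 and 10.70 in CD25+CD49f- cells, against 9.95, 10.04 and 10.54 in CD25-CD49f- cells. Neither pair overlapped; the differences were 0.54 ± 0.12 and 0.92 ± 0.11 (SE, adjusted p = 0.00402 and 6.84e-07). The second bright probe set of the gene gave 0.57 and 1.01. Slc2a1, the widely expressed transporter GLUT1, was not called: it differed by 0.07 ± 0.14 and 0.37 ± 0.13 (SE, adjusted p = 0.959 and 0.0598).

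**Figure D1:**
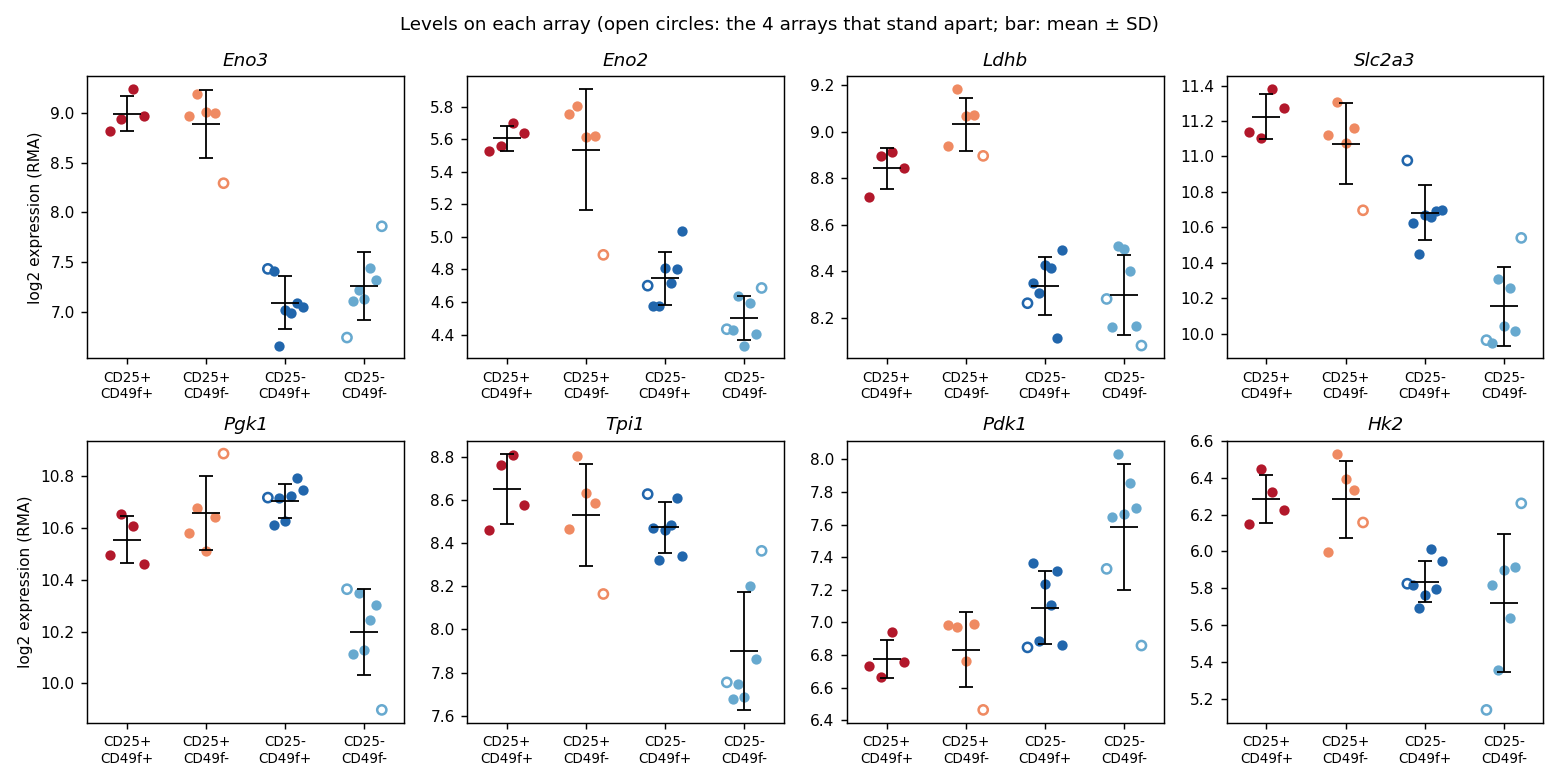
log2 expression (vertical axis, RMA) of 8 genes on each of the 23 arrays by sort group, with the group mean and SD as bars and the 4 arrays that stand apart as open circles. Eno3 lies at 8.29 or above on every CD25+ array and at 7.86 or below on every CD25- array, while Pgk1 is lowest in CD25-CD49f- cells.

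Members whose groups did not overlap numbered 7 of 29 in CD25+CD49f+ against CD25-CD49f+ cells, where 8.22% of all genes did not overlap, and 5 of 29 in CD25+CD49f- against CD25-CD49f- cells, where 8.1% did not. The 7 include Hk2, the inducible hexokinase, at 0.45 ± 0.15 (SE, adjusted p = 0.0772), Ldha at -0.23 ± 0.13 (SE, adjusted p = 0.484) and Taldo1, the transaldolase of the pentose phosphate pathway, at -0.29 ± 0.10 (SE, adjusted p = 0.107), none of which was called. Without the 4 arrays that stand apart, 7 members were called higher and 3 lower there (13% of all genes called), and 12 higher and 1 lower among CD49f- cells (19.7%).

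Among CD49f- cells 3 more genes rose with CD25. Hk2 averaged 6.28 ± 0.21 in CD25+CD49f- cells, against 5.72 ± 0.38 in CD25-CD49f- cells (SD, n = 5 and 7), a difference of 0.56 ± 0.14 (SE, adjusted p = 0.00445). Tpi1, the triose phosphate isomerase, averaged 8.53 ± 0.24 and 7.90 ± 0.27 (SD, same groups), a difference of 0.63 ± 0.12 (SE, adjusted p = 0.000348). Pgk1, the phosphoglycerate kinase that makes the first ATP of the pathway, averaged 10.66 ± 0.14 and 10.20 ± 0.17 (SD, same groups), a difference of 0.46 ± 0.08 (SE, adjusted p = 0.000162). Another probe set of Pgk1 gave 0.21 there and was not called. Gapdh and Pgam1 were not called there on all arrays, at 0.18 and 0.34 (limma adjusted p = 0.366 and 0.0646). Without the 4 arrays that stand apart both were called higher, by 0.34 and 0.27 (limma adjusted p = 0.00278 and 0.0248). The genes that fell were Pdk1 and Pfkp. Pdk1, the kinase that shuts pyruvate dehydrogenase, differed by -0.75 ± 0.15 (SE, adjusted p = 0.000711), while Pfkp, the platelet-type phosphofructokinase, differed by -0.34 ± 0.11 (SE, adjusted p = 0.0317). With the Pdk1 probe set of largest variance the difference was -0.39 and not called. The Pfkp call was lost in 18 of 41 alternative settings, among them the one without the 4 arrays that stand apart, and its other probe sets were not called.

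The CD49f gate was then compared within CD25- cells. There 7 of 29 genes rose and 1 fell in CD25-CD49f+ against CD25-CD49f- cells, where 13.4% of all genes tested were called, 8.01% higher and 5.42% lower. The members' median difference was 0.15, against -0.02 over all genes. The 7 were Slc2a3, Tpi1, Gapdh, Pgk1, Pgam1, Ldha and Pdk3, while the enolases and Pkm were not called on all arrays. The cell cycle markers named above rose in the same comparison, 27 of 29 with a median of 1.91, and their part in the result was not tested. Without the 4 arrays that stand apart 10 members were higher and 1 lower (19.1% of all genes called), the 8 first named among them.

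Pgk1 was at 10.61, 10.72 and 10.79 (lowest, median, highest) in CD25-CD49f+ cells, against 9.90, 10.24 and 10.36 in CD25-CD49f- cells, with no overlap and a difference of 0.51 ± 0.07 (SE, adjusted p = 1.56e-05). Tpi1 was at 8.32, 8.47 and 8.63 in CD25-CD49f+ cells, against 7.68, 7.76 and 8.36 in CD25-CD49f- cells, and differed by 0.57 ± 0.11 (SE, adjusted p = 0.000392). Its 3 probe sets agreed, at 0.56 to 0.68. Slc2a3 was at 10.45, 10.67 and 10.98 in CD25-CD49f+ cells, against 9.95, 10.04 and 10.54 in CD25-CD49f- cells, a difference of 0.53 ± 0.10 (SE, adjusted p = 0.000443). Only Pgk1 and Pdk3 did not overlap, 2 of 29 members against 5.78% of all genes.

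Gapdh, the enzyme that reduces NAD in the pathway's oxidative step, was at 11.94, 12.04 and 12.37 in CD25-CD49f+ cells, against 11.39, 11.49 and 11.96 in CD25-CD49f- cells, and rose by 0.51 ± 0.10 (SE, adjusted p = 0.000602). Its 5' probe set gave 0.98 but was not called (adjusted p over all probe sets = 0.114). Pgam1, the phosphoglycerate mutase of most tissues, averaged 8.67 ± 0.19 in CD25-CD49f+ cells, against 8.25 ± 0.27 in CD25-CD49f- cells (SD, n = 7 each), a difference of 0.42 ± 0.11 (SE, adjusted p = 0.0102). Ldha, the subunit that favours lactate production, averaged 11.64 ± 0.07 and 11.31 ± 0.21 (SD, same groups), a difference of 0.33 ± 0.11 (SE, adjusted p = 0.0379), and this call was lost in 16 of 41 alternative settings. The 2 pyruvate dehydrogenase kinases went opposite ways. Pdk1 averaged 7.09 ± 0.22 in CD25-CD49f+ cells, against 7.58 ± 0.39 in CD25-CD49f- cells (SD, n = 7 each), a difference of -0.49 ± 0.14 (SE, adjusted p = 0.0148), which was -0.36 and not called with the probe set of largest variance. Pdk3 was at 7.62, 7.69 and 8.06 in CD25-CD49f+ cells, against 6.63, 7.32 and 7.56 in CD25-CD49f- cells, and differed by 0.55 ± 0.15 (SE, adjusted p = 0.0164).

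Within CD25+ cells no member passed the test between CD25+CD49f+ and CD25+CD49f- cells, where 1.82% of all genes tested were called, 0.352% higher and 1.47% lower. The limma fit gave 1 member an unadjusted p under 0.05, and no other setting run called any. That gene was Pgd, the 6-phosphogluconate dehydrogenase of the pentose phosphate pathway, at 9.0, 9.38, 9.39 and 9.25 in CD25+CD49f+ cells, against 9.35, 9.61, 9.61, 9.35 and 9.91 in CD25+CD49f- cells. The groups overlapped, and the difference was -0.31 ± 0.10 (SE, adjusted p = 0.198). All 29 members overlapped between these groups, where 4.67% of all genes did not, and the members' standard errors ran from 0.087 to 0.203. Their median difference was 0.04, against 0.01 over all genes. Of the 29 cell cycle markers 10 were higher in this comparison and none lower, with a median of 0.60. Without the 4 arrays that stand apart 16 were higher and none lower (3.23% of all genes called). Of the 14 myeloid and dendritic cell markers 2 were lower and none higher. The part of these markers in the result was not tested.

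The difference between the 2 CD49f differences was tested as an interaction. 1 of 29 members was called, lower, where 5.31% of all genes tested were called, 0.984% higher and 4.33% lower. Pgk1 differed by -0.10 ± 0.09 in CD25+CD49f+ against CD25+CD49f- cells and by 0.51 ± 0.07 in CD25-CD49f+ against CD25-CD49f- cells (SE), an interaction of -0.61 ± 0.12 (SE, adjusted p = 0.00146). The Pgk1 probe set used is of a kind whose probes can match related transcripts, as are those used for Aldoa, Pgd and Tkt. The other 2 of Pgk1 gave -0.31 and -0.49, not called. Pdk1 (0.44 ± 0.22), Tpi1 (-0.45 ± 0.17), Pgam1 (-0.45 ± 0.18), Slc2a3 (-0.38 ± 0.16) and Gapdh (-0.26 ± 0.16; SE for each) were not called, with adjusted p of 0.18 to 0.53. Without the 4 arrays that stand apart those 5 were called, Pdk1 higher and the rest lower, and Pgk1 stayed called (9.4% of all genes). The other 2 probe sets of Tpi1 gave -0.55 and -0.85 and were called (adjusted p over all probe sets = 0.00158 and 0.0019), as was a second one of Pdk1 at 0.45 (adjusted p over all probe sets = 0.00803). Of the 29 cell cycle markers, 23 had a lower interaction, and their part in the result was not tested. The members' median interaction was -0.18, against 0.03 over all genes.

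**Figure D2:**
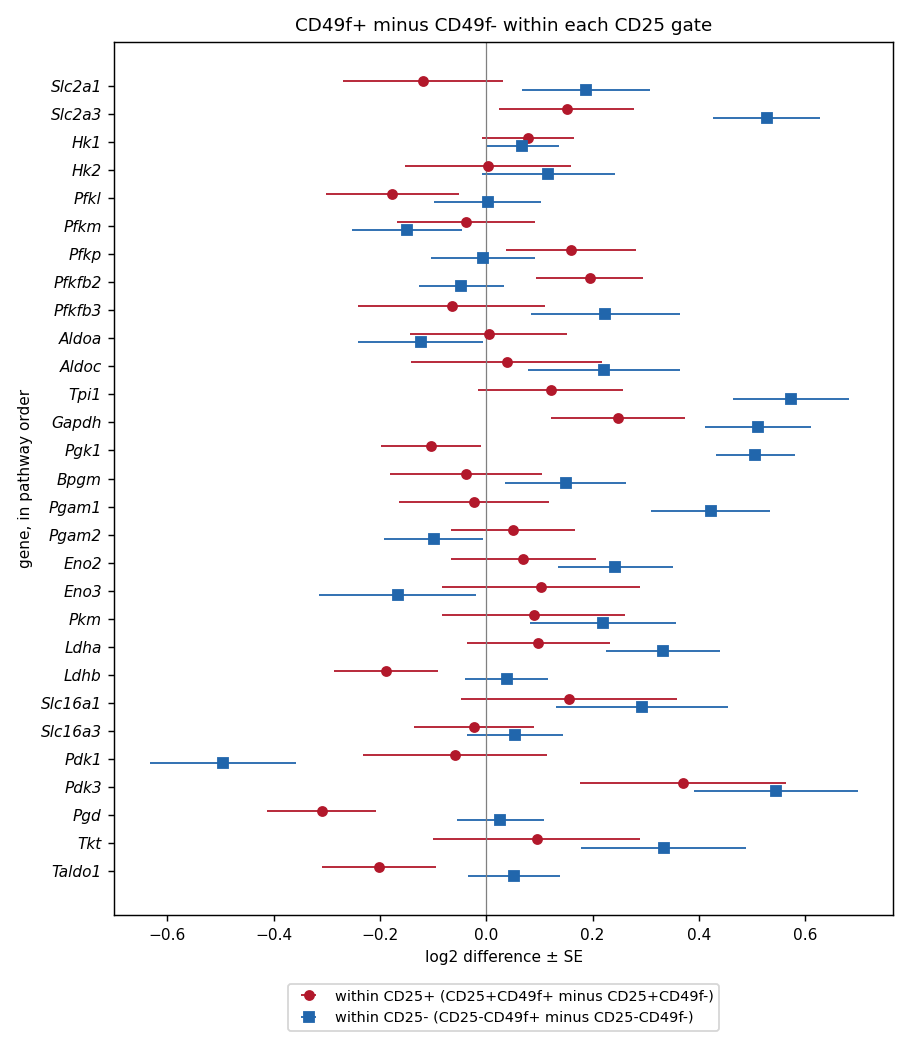
log2 difference ± SE (horizontal axis) between CD49f+ and CD49f- cells for the 29 genes in pathway order, within CD25+ cells (circles) and within CD25- cells (squares). Pgk1 is at -0.10 and 0.51, the 1 gene whose difference between the gates was called.

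For the upper pathway and the pentose phosphate branch, the probe sets used passed no test on all arrays other than those of Hk2, Pfkp and Slc2a3, as given above. Without the 4 arrays that stand apart Pfkm was called higher by 0.34 in both CD25 comparisons (adjusted p = 0.00578 and 0.00643), and Taldo1 lower by 0.28 in CD25+CD49f+ against CD25-CD49f+ cells (adjusted p = 0.03). Hk1, the constitutive hexokinase, differed by -0.09 to 0.08 over the 4 comparisons and was called in none. Pfkl and Pfkm, the liver- and muscle-type phosphofructokinases, lay between -0.18 and 0.28 without a call, as did Pfkfb2 and Pfkfb3, which make the activator of phosphofructokinase, between -0.15 and 0.22. A second probe set of Pfkfb2 was lower by 0.43 in CD25-CD49f+ against CD25-CD49f- cells (adjusted p over all probe sets = 0.00282), where the one used gave -0.05, so its reading depends on the probe set. Aldoa and Aldoc, the aldolases, Pkm, the pyruvate kinase, Bpgm, which makes the shunt product that binds haemoglobin, and Pgam2, the muscle mutase, were not called on all arrays. Of the monocarboxylate carriers that move lactate, Slc16a1 differed by 0.02 to 0.29 and Slc16a3 by -0.02 to 0.12, without a call. Tkt, the transketolase, differed by up to 0.33 ± 0.16 (SE, adjusted p = 0.191) in CD25-CD49f+ against CD25-CD49f- cells, and Taldo1 by 0.05 there.

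**Figure D3:**
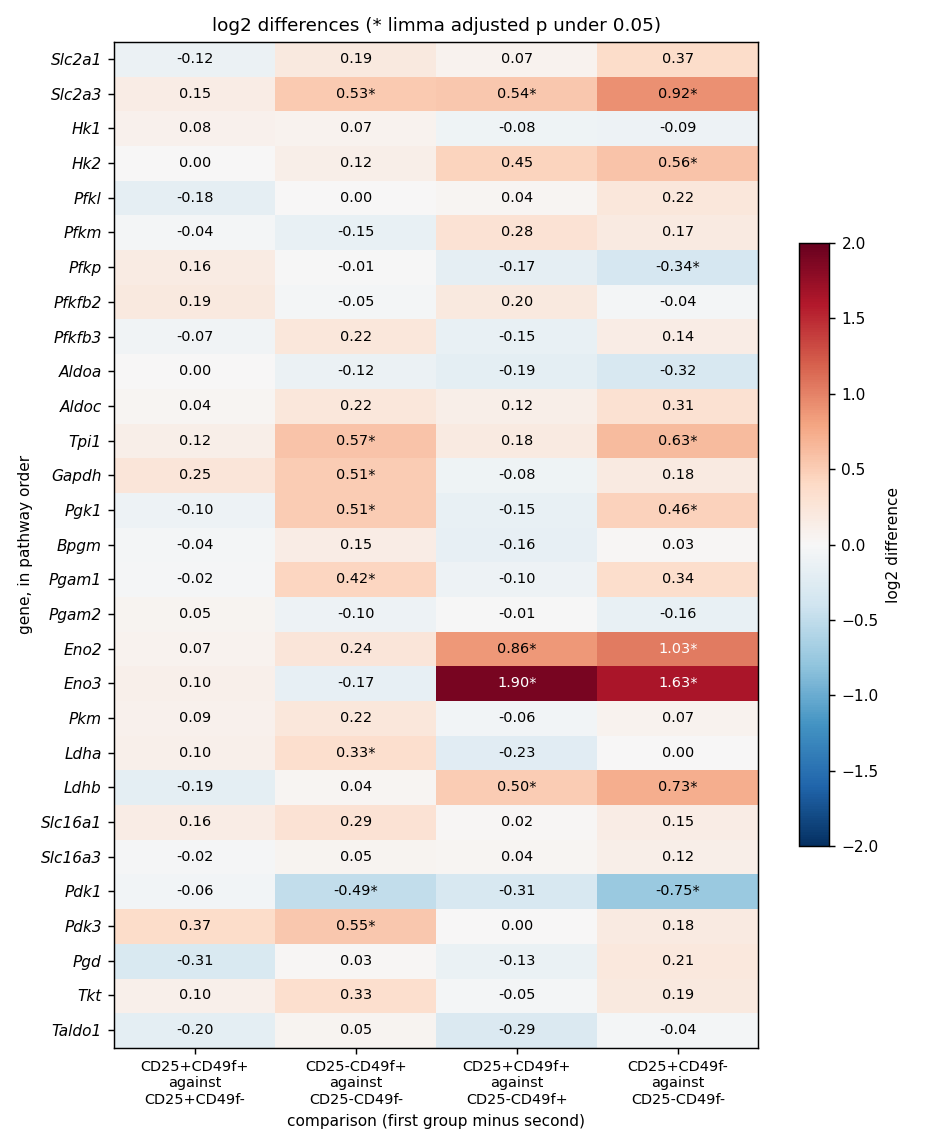
log2 differences of the 29 genes (rows, in pathway order) in the 4 comparisons (columns, first group minus second), with a star where the limma adjusted p is under 0.05. Eno3 carries the largest values, 1.90 and 1.63, and no cell of the first column is starred.

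Isoforms were then set against each other as log2 ratios within an array. Over 12 pairs and 4 comparisons, 48 exact two-sided permutation tests gave 19 with a Benjamini-Hochberg adjusted p under 0.05, adjusted over the 48: 1 in CD25+CD49f+ against CD25+CD49f-, 4 in CD25-CD49f+ against CD25-CD49f-, 6 in CD25+CD49f+ against CD25-CD49f+ and 8 in CD25+CD49f- against CD25-CD49f- cells. The ratio itself has no absolute meaning between probe sets, and only its change does.

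Ldha against Ldhb fell with CD25. On the 4 arrays of CD25+CD49f+ cells the ratio was 2.62, 2.57, 2.55 and 2.53, averaging 2.57 ± 0.04, against 3.30 ± 0.15 in CD25-CD49f+ cells (SD, n = 4 and 7), a change of -0.73 with no overlap (exact adjusted p = 0.014). On the 5 of CD25+CD49f- cells it was 2.48, 2.36, 2.40, 2.37 and 1.79, averaging 2.28 ± 0.28, against 3.01 ± 0.14 in CD25-CD49f- cells (SD, n = 5 and 7), a change of -0.73 with no overlap (exact adjusted p = 0.014). Between the CD49f gates the ratio was higher by 0.29 in both CD25+CD49f+ against CD25+CD49f- and CD25-CD49f+ against CD25-CD49f- cells (exact adjusted p = 0.0401 and 0.014), but without the 4 arrays that stand apart these were 0.17 and 0.21, with exact adjusted p of 0.0571 and 0.0567, and within CD25+ cells the call was lost in 16 of 30 alternative settings. Eno2 against Eno3 changed by -1.04 in CD25+CD49f+ against CD25-CD49f+ and -0.59 in CD25+CD49f- against CD25-CD49f- cells, with no overlap in either (exact adjusted p = 0.014 for both), so Eno3 rose more than Eno2 on this scale, with Eno2 near the bottom of the array's range.

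Pdk1 against Pdk3 was lower by 1.04 in CD25-CD49f+ against CD25-CD49f- cells and by 0.93 in CD25+CD49f- against CD25-CD49f- cells (exact adjusted p = 0.014 for both); with the probe set of largest variance neither was called. Hk1 against Hk2 changed by -0.53 in CD25+CD49f+ against CD25-CD49f+ and -0.66 in CD25+CD49f- against CD25-CD49f- cells (exact adjusted p = 0.014 for both). The second of these calls was lost in 4 of 30 alternative settings, among them the mean of the probe sets, the probe set of largest variance and the one without CD25+CD49f- replicate 4. The group means of Hk2 lay under the 6.50 that Xist reached on arrays lacking it. Pfkm against Pfkp changed by 0.46 and 0.51 in the same comparisons (exact adjusted p = 0.0208 and 0.014). It was not called there with the mean of the probe sets or with the probe set of largest variance. Aldoa against Aldoc changed by -0.34 in CD25-CD49f+ against CD25-CD49f-, -0.31 in CD25+CD49f+ against CD25-CD49f+ and -0.63 in CD25+CD49f- against CD25-CD49f- cells (exact adjusted p = 0.014, 0.0401 and 0.014). The call at -0.31 was lost in 12 of 30 alternative settings. Both it and the call at -0.34 were lost with the probe set of largest variance. Neither gene was called alone on all arrays; without the 4 arrays that stand apart Aldoc was called higher in these 3 comparisons, by 0.30, 0.23 and 0.49 (limma adjusted p = 0.00129, 0.0269 and 1.26e-05).

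**Figure D4:**
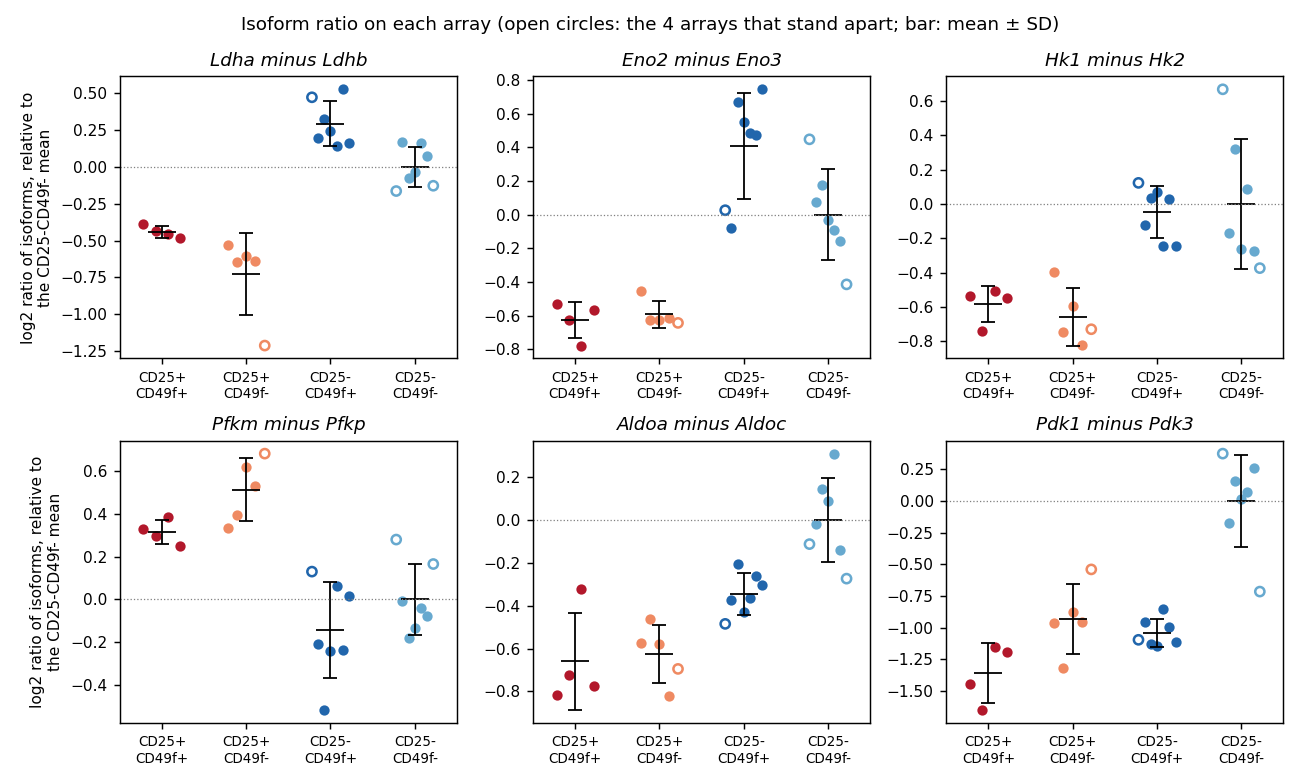
Within-array log2 ratio of 6 isoform pairs (vertical axis, relative to the CD25-CD49f- mean) on each of the 23 arrays by sort group, with mean and SD as bars and the 4 arrays that stand apart as open circles. Ldha against Ldhb is lower in both CD25+ groups than in either CD25- group.

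Other genes of the pathways were read from lists made beside the members. Of 22 further glycolysis genes, none was higher and 2 were lower in CD25+CD49f+ against CD25+CD49f- cells, where 1.82% of all genes were called, 1.47% lower. They were the hexokinase Hk3 by -0.67 ± 0.12 and the glucose transporter Slc2a6 by -0.82 ± 0.14 (SE, adjusted p = 0.000969 and 0.000531). In CD25+CD49f+ against CD25-CD49f+ cells 1 of the 22 was lower and none higher, where 5.72% of all genes were called. Gpd2, the mitochondrial glycerol phosphate dehydrogenase that takes electrons from cytosolic NADH, was lower in both CD25 comparisons, by -0.79 and -0.72. In CD25-CD49f+ against CD25-CD49f- cells, 3 of the 22 were lower and none higher, led by Pfkfb4 at -0.53 ± 0.07 (SE, adjusted p = 1.01e-05), where 13.4% of all genes were called. In CD25+CD49f- against CD25-CD49f- cells, 2 of the 22 were higher, Slc2a6 by 0.76 and Hk3 by 0.48, and 2 were lower, Gpd2 as above and Pfkfb4 by -0.33, where 14% of all genes were called. Taken in either direction, the counts in the comparisons against CD25-CD49f- cells are near the share of all genes. By direction, the 3 called in CD25-CD49f+ against CD25-CD49f- cells were all lower, where 5.42% of all genes were called lower and 8.01% higher.

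Tktl1, a transketolase-like gene on the X chromosome, showed the largest change of the 11 further pentose phosphate genes. It was at 6.38, 7.14, 5.16 and 5.17 in CD25+CD49f+ cells and at 7.69, 7.84, 6.66, 6.48 and 7.11 in CD25+CD49f- cells. It was at 6.40, 7.22 and 8.03 (lowest, median, highest) in CD25-CD49f+ cells, against 3.65, 5.02 and 5.30 in CD25-CD49f- cells, with no overlap and a difference of 2.52 ± 0.35 (SE, adjusted p = 7.94e-06). In every group the arrays with Xist and no Y-linked transcripts lay above those with Y-linked transcripts and no Xist, by group means of 6.76 and 5.17, 7.76 and 6.57, 7.76 and 6.46, and 5.19 and 4.01 in the order CD25+CD49f+, CD25+CD49f-, CD25-CD49f+ and CD25-CD49f-. With Y-linked transcripts as a block the difference was again 2.52 (adjusted p = 6.87e-12) and the difference between CD25+CD49f+ and CD25+CD49f- cells, -1.19 and not called without the block (adjusted p = 0.333), was -1.32 (adjusted p = 5.49e-05). The interaction was -3.71 ± 0.57 (SE, adjusted p = 7.64e-05). All CD25-CD49f- arrays and at least 1 array of every other group lay under the 6.50 that Xist reached on arrays lacking it, which limits what the size of these differences says. Dera, which splits deoxyribose phosphate, was higher in CD25-CD49f+ against CD25-CD49f- cells by 0.60 ± 0.08 (SE, adjusted p = 6.93e-06), and Rpia, the ribose phosphate isomerase, in CD25+CD49f- against CD25-CD49f- cells by 0.44 ± 0.12 (SE, adjusted p = 0.0126).

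Regulators were described by their own list of 25, of which 3 rose and 4 fell in CD25-CD49f+ against CD25-CD49f- cells, where 8.01% of all genes were called higher and 5.42% lower. Hif1a, which drives glycolytic genes under low oxygen and in activated T cells, averaged 11.36 ± 0.34 in CD25-CD49f+ cells, against 10.55 ± 0.64 in CD25-CD49f- cells (SD, n = 7 each), a difference of 0.81 ± 0.20 (SE, adjusted p = 0.00591). Irf4, an activation factor, differed by 1.43 ± 0.22 and Egln3, a prolyl hydroxylase that tags Hif1a for removal, by 0.66 ± 0.10 (SE, adjusted p = 2.22e-05 and 2.57e-05). Epas1, which encodes the relative of Hif1a called HIF2 alpha, fell in all 4 pairwise comparisons, by -1.44, -0.94, -1.79 and -1.29 in CD25+CD49f+ against CD25+CD49f-, CD25-CD49f+ against CD25-CD49f-, CD25+CD49f+ against CD25-CD49f+ and CD25+CD49f- against CD25-CD49f- cells. Myc, a driver of growth, was higher by 0.73 ± 0.19 (SE, adjusted p = 0.0152) in CD25+CD49f+ against CD25-CD49f+ cells. Of 16 measured hypoxia-linked genes outside glycolysis, 2 rose and 1 fell with CD25 among CD49f+ cells, where 5.72% of all genes were called. Among CD49f- cells 4 rose and 1 fell (14% of all genes called). The list's median differences were 0.06 and 0.10, against 0.02 and -0.01 over all genes. Ndrg1 rose by 1.07 among CD49f+ cells and 1.30 among CD49f- cells, and Bnip3 by 0.60 and 0.76, while P4ha2 fell in both CD25 comparisons. Bhlhe40, a transcription factor induced by activation, rose by 1.42 in CD25-CD49f+ against CD25-CD49f- and by 1.89 in CD25+CD49f- against CD25-CD49f- cells. Of 12 genes of pyruvate entry into mitochondria, 1 rose among CD49f+ cells and 2 rose among CD49f- cells in the CD25 comparisons, counts near the 5.72% and 14% of all genes called there.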

How the data were processed

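Arrays of 23 sorted samples were used. The authors deposited log2 values for 45101 probe sets, made with RMA per the submitters' processing notes; no RMA version is stated there, and scanner files were not used here. Of the probe sets 34958 carry 1 gene, 932 several and 9211 none, and 34754 of them matched RefSeq; 18194 genes remained, each read by its probe set with the highest mean. limma 3.58.1 in R 4.3.3 fitted the 4 groups together with eBayes, and p-values were adjusted over all genes by Benjamini-Hochberg (called: under 0.05). Isoform ratios were tested by exact permutation. Tests were checked on simulated data. Samples were grouped by their titles; p-values measure spread between these samples, and their number limits the precision. The members and lists were chosen with earlier results of these data known. The genes named were all members, the sort markers, and up to 4 called genes per list and comparison; the probe sets and markers added beside them were chosen after their values were seen. Leaving out each array, other scalings, probe set rules, blocks and array subsets were the alternatives.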

Additional observations from a re-analysis of the deposited data

Results flagged for a closer look

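Of 120 gene and group combinations examined (29 members and Tktl1 in 4 groups), 13 had an array whose gap to the nearest other array was large for the group's range, where chance gives about 1 in 20; 11 of the 13 lay on the 4 arrays that stand apart. In CD25-CD49f- cells replicate 7 read 11.40 for Aldoa, 7.46 for Aldoc and 10.70 for Pkm, the highest of each group, and 10.42 for Tkt, the lowest. In CD25-CD49f+ cells replicate 1 read 11.20 for Aldoa, 7.47 for Aldoc and 10.66 for Pkm, all highest, and replicate 4 read 8.60 for Slc2a1, the lowest. In CD25+CD49f- cells replicate 5 read 4.89 for Eno2, 8.29 for Eno3, 10.69 for Ldha and 8.16 for Slc16a1, all lowest, and replicate 1 read 6.78 for Aldoc, the lowest.

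The CD49f difference depended on the CD25 gate, by the interaction in limma, for Pgk1 (-0.61), Hk3 (-0.58), Slc2a6 (-0.62), Tktl1 (-3.71) and Dera (-0.52) among the members and the other glycolysis and pentose phosphate genes. Adjusted p was 0.00146, 0.0186, 0.0359, 7.64e-05 and 0.0169 in that order. These were 1 of 29 members, 2 of 22 further glycolysis genes and 2 of 11 further pentose phosphate genes, where 5.31% of all genes were called. The Pgk1 call was lost in 3 of 40 alternative settings. They were the probe set of largest variance, arrays without Y-linked transcripts, and arrays with them and no Xist. Without the 4 arrays that stand apart Slc2a6 was not called.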

How the results depend on the processing

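Counts of members called were 0, 8, 4, 9 and 1 for CD25+CD49f+ against CD25+CD49f-, CD25-CD49f+ against CD25-CD49f-, CD25+CD49f+ against CD25-CD49f+, CD25+CD49f- against CD25-CD49f- and the interaction. The shares of all genes called were 1.82%, 13.4%, 5.72%, 14% and 5.31% in that order. The labels do not say whether same-numbered arrays share an origin. Of such pairs 15 of 29 correlated above 0.1, with a median of 0.10 against 0.02 for pairs of other numbers. Only 2 of 23 arrays correlated best with their own number. With the replicate block the counts of members called were 0, 7, 5, 8 and 1, where 1.77%, 13.3%, 5.14%, 13% and 5.41% of all genes were called. Leaving out 1 array gave 0 to 0, 7 to 9, 4 to 6, 8 to 10 and 1 to 2, the highest interaction without CD25-CD49f- replicate 7. With array weights CD25+CD49f+ against CD25-CD49f+ gave 9 and the interaction 6, where the shares of all genes called also rose, to 16.9% and 12.5%. With the mean of the probe sets the interaction was 2 (5.71% of all genes). With the compared groups alone CD25+CD49f+ against CD25-CD49f+ gave 7 (8.52% of all genes). Under a stricter adjusted p of 0.01 CD25-CD49f+ against CD25-CD49f- gave 4 (8.99% of all genes), and with a log2 difference of at least 0.5 it was 5 (6.61%). Arrays without Y-linked transcripts gave 5 for CD25-CD49f+ against CD25-CD49f-, 2 for CD25+CD49f+ against CD25-CD49f+ and 0 for the interaction. There 7.37%, 2.71% and 2.03% of all genes were called. Arrays with Y-linked transcripts and no Xist gave 1, 2, 4 and 0 for the last 4 in the order above. There 5.94%, 1.45%, 5.52% and 1.33% of all genes were called. Both settings have fewer arrays. Without the 4 arrays that stand apart, chosen after seeing the data, CD25+CD49f+ against CD25-CD49f+ gave 10 and the interaction 6, where 13% and 9.4% of all genes were called. The 19 isoform calls became 12 with the mean of the probe sets, 11 of them shared with the 19. With the probe set of largest variance 13 were called, only 8 of them shared. On arrays without Y-linked transcripts there were 0, where too few arrays remain for the exact test to pass. Leaving out 1 array gave 15 to 22. With the replicate block in limma there were 19, of which 17 were shared. No called value reversed under any of these settings. The cause of the other changes was not tested.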
